A study of Mus musculus with 23 samples.

Results

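Bcl6-deleted conventional dendritic cells (DC) of mouse spleen were compared with Bcl6-deleted plasmacytoid DC (pDC). The comparison covers the 14 arrays labelled Bcl6 cKO, of 23 in the series. They hold 4 arrays of conventional DC of type 1 (cKO cDC1), 5 of conventional DC of type 2 (cKO cDC2) and 5 of cKO pDC. All 3 groups are labelled as conditional deletion of Bcl6, so they do not differ in labelled genotype. How complete the deletion was in each cell type was not tested. The other 9 arrays, 3 each of WT cDC1, WT cDC2 and WT pDC, entered the fit and gave the same comparison with Bcl6 present. Each array held RNA of 1 sorted population from digested spleen. The sources used here do not give the Cre driver, the sort gates, the strain and age of the mice or any pooling. The labels also leave it unsaid whether each array stands for another animal, so the p-values measure the spread between these samples only, which may be technical.

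Conventional DC take up antigen, migrate to T cell zones and present peptides on MHC molecules. The cDC1 are known for cross-presentation to CD8 T cells and the cDC2 for presentation to CD4 T cells. The pDC look more like lymphocytes, sense nucleic acids through endosomal Toll-like receptors and are the main source of type I interferon in viral infection. Their identity rests on the E protein TCF4 (E2-2), which the inhibitor ID2 opposes in conventional DC. Bcl6 encodes a transcriptional repressor known for its part in germinal centres.

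Every difference below is the mean of the cKO cDC1 and cKO cDC2 group means minus the cKO pDC mean, on the log2 scale of the deposited intensities, with its limma standard error (SE). Both conventional types therefore weigh equally. Levels are log2 intensities of single arrays. A gene was called at a Benjamini-Hochberg adjusted p below 0.05 in limma over all 12157 genes tested. It was counted as shared when both conventional types were also called on their own, on the same side, and none of the 9 cKO conventional arrays overlapped the 5 cKO pDC arrays.

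The median intensity of an array was 29.3 to 41.2, and the arrays fell into a low set of 14 arrays and a high set of 9, parted by the widest gap in the medians, and each set held arrays of all groups. Among the 14 cKO arrays, 42.8% of the variance lay between conventional DC and pDC, and the first principal component (44.1%) placed the conventional arrays at 20.6 to 42.8 and the pDC arrays at −67.3 to −40.0. Of the marker lists, all 5 markers of conventional DC, all 8 of cDC1 and all 9 of pDC that were tested were highest in their own cells, and 6 of 9 for cDC2. The exceptions were Cd4 and Clec10a, highest in cKO pDC, and Esam, highest in cKO cDC1. Where the probe set of the targeted gene sits relative to the deleted exons is not given, so it is no check of the deletion. Bcl6 read 8.74, 8.06, 8.46 and 8.29 in cKO cDC1 and 8.40, 8.61, 7.50, 7.51 and 7.97 in cKO cDC2, against 6.03, 5.15, 5.34, 6.42 and 5.65 in cKO pDC. All 9 conventional arrays lay above all 5 pDC arrays, a difference of 2.47 ± 0.25 (SE; limma adjusted p = 6.27e-08).

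Of 12157 genes tested, 1892 were higher and 1091 lower in cKO conventional DC than in cKO pDC, or 24.5% of all genes (15.6% higher and 8.97% lower). The counts of every gene list below are to be read against these shares. A difference over 4-fold was called for 275 higher and 163 lower genes. Within the low set of arrays 1300 genes were higher and 709 lower, and within the high set 1568 and 954. Quantile normalization moved the split to 1900 higher and 1717 lower. The median difference over all genes was 0.042 as deposited, −0.036 after quantile normalization and 0.034 after median centring. In 1124 genes (9.25% of all, 5.5% higher and 3.74% lower) the conventional and pDC arrays did not overlap, and 626 higher and 431 lower genes met the definition of shared (5.15% and 3.55%).

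**Figure D1:**
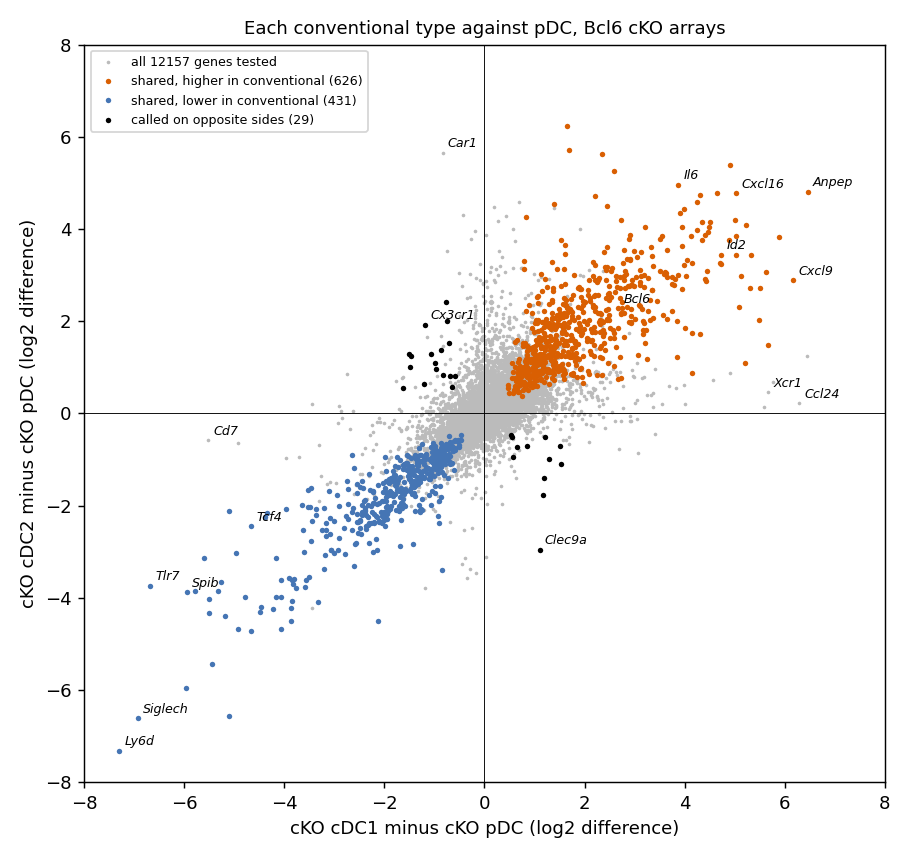
Difference of cKO cDC1 from cKO pDC (horizontal axis, log2) against that of cKO cDC2 from cKO pDC (vertical axis, log2), 1 point per gene tested. The 626 shared higher genes (orange) and 431 shared lower genes (blue) lie along the diagonal, with Siglech and Ly6d at the lower left, while Xcr1, Ccl24, Car1 and Cd7 stand apart in 1 type and 29 genes (black) were called on opposite sides. Both axes share the same pDC arrays.

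The 12 largest shared differences in favour of conventional DC included surface enzymes and adhesion molecules, chemokines and cytokines. Genes of other kinds, such as a tetraspanin, a serpin and an enzyme of creatine synthesis, were also among them. Anpep encodes aminopeptidase N (CD13), a surface peptidase. It read 11.46, 10.83, 11.61 and 11.33 in cKO cDC1 and 9.91, 10.24, 8.87, 9.56 and 9.71 in cKO cDC2, against 5.28, 5.14, 4.40, 4.59 and 4.86 in cKO pDC. All conventional arrays lay far above all pDC arrays, cDC1 above cDC2, and the difference was 5.63 ± 0.23 (49.6-fold, adjusted p = 1.47e-14). Cd63, a tetraspanin of late endosomes, read 9.89, 10.97, 10.92 and 11.40 in cKO cDC1 and 10.84, 10.38, 11.42, 11.83 and 11.92 in cKO cDC2, against 4.49, 5.08, 6.86, 5.95 and 7.10 in cKO pDC. Its pDC arrays spread over more than 2 log2 units but none reached a conventional array (5.14 ± 0.53, 35.3-fold). Cxcl16, a membrane-bound chemokine for CXCR6, was similar in both conventional types at 9.46 to 10.37, against 4.78 to 5.45 in cKO pDC (4.90 ± 0.20, 29.9-fold).

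For another 4 genes of this group the direct test between cKO cDC1 and cKO cDC2 did not pass (adjusted p 0.373 or more). The metalloprotease-like surface protein Adam23 read 8.71 to 9.69 in the 9 cKO conventional arrays and 4.14 to 4.90 in the 5 cKO pDC arrays (4.72 ± 0.19). The adhesion molecule Nectin1 read 9.10 to 10.20 in cKO conventional DC and 4.37 to 6.05 in cKO pDC (4.52 ± 0.22). Il1b, the inflammasome-processed cytokine IL-1β, read 10.45, 10.37, 11.18 and 11.06 in cKO cDC1 and 10.72, 11.14, 10.96, 11.37 and 11.30 in cKO cDC2, against 5.66, 6.39, 6.63, 6.39 and 7.48 in cKO pDC, a difference of 4.42 ± 0.28 (21.4-fold). Apol7c, of the apolipoprotein L family, differed by 4.60 ± 0.36.

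In 4 of the remaining genes cKO cDC1 stood above cKO cDC2. Cxcl9, an interferon-γ-induced ligand of CXCR3, read 10.52, 11.27, 11.59 and 11.46 in cKO cDC1 and 7.08, 7.69, 7.97, 8.40 and 8.49 in cKO cDC2, against 4.14, 5.11, 5.47, 4.71 and 5.78 in cKO pDC. Its cDC1 arrays lay above all cDC2 arrays, which in turn lay above all pDC arrays, with differences from pDC of 6.17 ± 0.36 and 2.88 ± 0.34. Il12b, the p40 subunit that IL-12 and IL-23 share, stood at 9.59 to 10.26 in cKO cDC1 and 8.50 to 9.24 in cKO cDC2, against 4.48 to 5.27 in cKO pDC. The serpin Serpinb10 (5.88 in cKO cDC1 and 3.83 in cKO cDC2 over pDC) and Gatm, which makes the precursor of creatine (5.23 and 4.09), were also higher in cDC1 than in cDC2 (adjusted p = 0.0108 or less for the 4 genes). Il6, the inflammatory cytokine IL-6, read 6.59, 6.67, 7.95 and 8.34 in cKO cDC1 and 7.22, 7.82, 8.84, 9.18 and 9.38 in cKO cDC2, against 3.58, 3.21, 3.29, 3.94 and 3.60 in cKO pDC. Its spread within each conventional type was wider than that among pDC, and cDC1 and cDC2 did not pass against each other (adjusted p = 0.332). For 8 of the 12 genes the pDC mean lay below the mean of its array medians (5.11), which leaves the size of their folds uncertain.

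Among the 12 largest shared differences in favour of pDC were the receptors, sensors and factors that define these cells, with several genes of the B cell lineage. Ly6d, a surface protein that marks B cell-biased lymphoid progenitors, read 4.23, 4.54, 5.31 and 5.78 in cKO cDC1 and 4.47, 4.29, 4.86, 5.26 and 5.86 in cKO cDC2, against 11.87, 12.03, 12.25, 12.34 and 12.85 in cKO pDC, the widest gap of all (−7.31 ± 0.29, 159-fold lower, adjusted p = 9.52e-15). Siglech, the sialic acid-binding receptor used to recognise mouse pDC, read 5.31 to 6.21 in the 9 cKO conventional arrays, against 12.21, 12.53, 12.08, 12.69 and 12.46 in cKO pDC. The spread within either side was under 1 log2 unit, and the difference was −6.77 ± 0.19 (109-fold lower, adjusted p = 1.47e-17). Ccr9, the receptor for the gut chemokine CCL25, read 5.95, 5.29, 6.62 and 6.46 in cKO cDC1 and 4.18, 4.44, 3.86, 5.28 and 5.34 in cKO cDC2, against 11.23, 11.63, 10.55, 11.69 and 10.86 in cKO pDC (−5.84 ± 0.27). The cDC1 arrays thus kept a higher residual level than most cDC2 arrays.

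Another 3 genes were graded, with cDC1 lowest, cDC2 between and pDC highest. Tlr7, the endosomal sensor of single-stranded RNA, read 3.40, 2.99, 3.90 and 3.82 in cKO cDC1 and 5.58, 6.73, 7.24, 6.14 and 6.72 in cKO cDC2, against 9.84, 10.27, 10.05, 10.34 and 10.60 in cKO pDC. Spib, an ETS-family factor of pDC and B cells, read 4.33, 4.32, 4.66 and 4.32 in cKO cDC1 and 6.20, 6.68, 5.90, 6.70 and 6.93 in cKO cDC2, against 9.99, 10.14, 9.42, 11.31 and 10.94 in cKO pDC. Blnk, the adaptor of B cell receptor signalling, read 4.10 to 4.87 in cKO cDC1 and 6.30 to 6.63 in cKO cDC2, against 10.08 to 10.59 in cKO pDC. None of the 3 groups overlapped another in these genes, and the mean differences were −5.22 ± 0.25, −4.92 ± 0.31 and −4.82 ± 0.19.

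The list closed with 6 further genes. The membrane protein gene Mctp2 (−5.96) and the predicted gene Gm12253 (−5.44) had nearly the same mean in both conventional types, and so did the Src-like adaptor Sla2 (−4.80). The sodium pump subunit Atp1b1 (−4.91), the sialic acid hydroxylase Cmah (−4.79) and the apolipoprotein E and reelin receptor Lrp8 (−4.77) had higher means in cDC2 than in cDC1, which passed for Atp1b1 and Lrp8 but not for Cmah (adjusted p = 0.0571). Adjusted p for the conventional-pDC difference was 1.76e-11 or less for all genes of the last 3 paragraphs. For 4 of the 12 genes (Ly6d, Mctp2, Gm12253 and Tlr7) the conventional mean lay below the mean of its array medians.

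**Figure D2:**
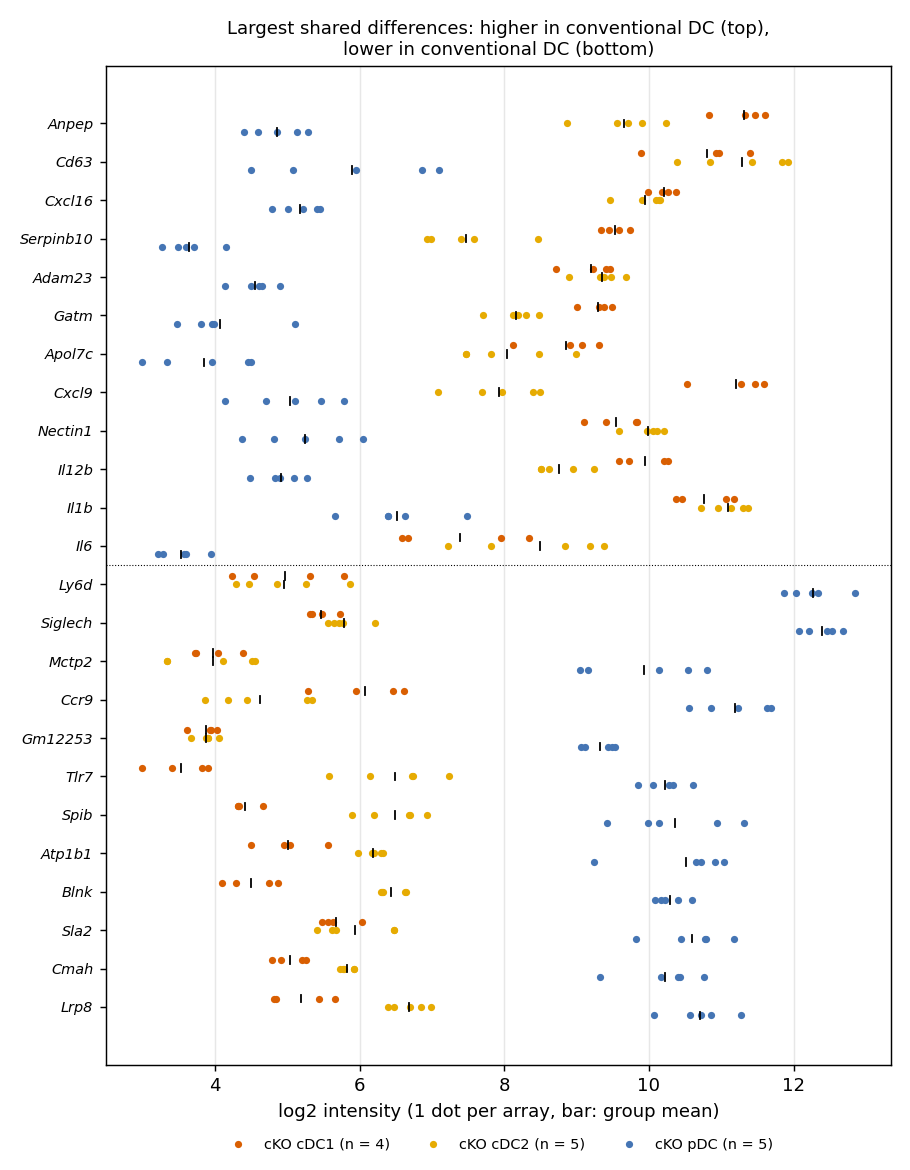
Log2 intensity of each cKO array for the 12 largest shared higher genes (upper rows) and the 12 largest shared lower genes (lower rows), with a bar at each group mean. No conventional array (orange cDC1, yellow cDC2) overlaps a pDC array (blue) in any row. In some rows cDC1 and cDC2 also part from each other, among them Anpep, Cxcl9, Il12b, Serpinb10, Tlr7, Spib and Blnk.

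Promoter sequences of 5 of these 24 genes, picked after the matches were seen, show what the motif matches look like: the E protein motif in 3 genes higher in pDC, and AP-1 or NF-κB motifs in 2 genes higher in conventional DC. The E protein motif was also found in Mctp2, Sla2 and Lrp8, which were higher in pDC, and in Gatm, which was higher in conventional DC, and the AP-1 motif also in Serpinb10. They are RefSeq sequences of GRCm38.p6, from 250 bases before to 50 after the annotated start, read 5′ to 3′ on the gene's strand, with motif matches in capitals. Siglech lies at chr7:55767934-55768233, plus strand, Ccr9 at chr9:123766961-123767260, plus strand and Blnk at chr19:40994172-40994471, minus strand. Cxcl9 lies at chr5:92328030-92328329, minus strand and Il6 at chr5:30012864-30013163, plus strand.
Siglech: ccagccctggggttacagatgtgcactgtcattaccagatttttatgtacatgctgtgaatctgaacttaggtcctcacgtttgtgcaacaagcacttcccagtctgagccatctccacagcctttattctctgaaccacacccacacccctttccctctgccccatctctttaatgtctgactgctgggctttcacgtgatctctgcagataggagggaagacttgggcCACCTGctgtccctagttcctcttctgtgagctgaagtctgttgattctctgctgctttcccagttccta
Ccr9: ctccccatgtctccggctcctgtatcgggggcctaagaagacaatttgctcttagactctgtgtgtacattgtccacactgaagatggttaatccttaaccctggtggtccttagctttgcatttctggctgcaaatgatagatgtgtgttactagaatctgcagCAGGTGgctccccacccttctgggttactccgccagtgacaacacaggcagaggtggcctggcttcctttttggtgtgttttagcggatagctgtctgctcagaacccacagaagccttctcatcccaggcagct
Blnk: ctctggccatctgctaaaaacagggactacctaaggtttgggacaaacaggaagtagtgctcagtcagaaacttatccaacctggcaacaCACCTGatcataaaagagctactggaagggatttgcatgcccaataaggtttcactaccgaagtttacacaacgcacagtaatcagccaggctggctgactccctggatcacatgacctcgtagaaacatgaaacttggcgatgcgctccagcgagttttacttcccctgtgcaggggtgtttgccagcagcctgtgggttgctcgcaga
Cxcl9: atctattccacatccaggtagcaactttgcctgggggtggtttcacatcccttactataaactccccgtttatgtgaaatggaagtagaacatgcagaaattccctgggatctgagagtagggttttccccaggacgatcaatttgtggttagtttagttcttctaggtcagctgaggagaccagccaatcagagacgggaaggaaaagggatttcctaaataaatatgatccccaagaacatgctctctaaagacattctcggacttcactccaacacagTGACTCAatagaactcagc
Il6: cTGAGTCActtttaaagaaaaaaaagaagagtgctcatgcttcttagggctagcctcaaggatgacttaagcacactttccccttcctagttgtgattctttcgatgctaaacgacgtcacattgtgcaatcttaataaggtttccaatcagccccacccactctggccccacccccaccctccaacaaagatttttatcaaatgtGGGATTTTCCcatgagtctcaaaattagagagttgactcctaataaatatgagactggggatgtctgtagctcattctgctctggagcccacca

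In all, 5 motifs were searched on both strands of all such promoters, CAGGTG for E proteins, TGANTCA for AP-1, GGGA, any base and TTTCC for NF-κB, GGAA, any 2 bases and GAAA for ETS-IRF pairs and TTCCTNGAA for BCL6. The last 3 can overlap through the letters GGAA or TTCC, so a stretch can count for more than 1 of them. Promoters were matched for 501 of the 626 shared higher genes, 328 of the 431 shared lower genes and 9702 of the 12157 genes tested. The E protein motif occurred in 18.0% of the shared higher genes and 30.8% of the shared lower genes, against 21.5% of all genes tested with a promoter. For AP-1 the shares were 10.6%, 6.10% and 6.39%, and for NF-κB 1.60%, 0.305% and 0.526%. For ETS-IRF they were 4.79%, 3.35% and 2.96%, and for BCL6 2.99%, 1.83% and 1.47%. These shares were not tested, and a match of letters is no evidence of binding.

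Identity lists mostly parted as their names say, except that of cDC2, and the core conventional DC and cDC1 lists held members on the other side. Of 22 cDC1 identity genes tested, 18 were higher and 2 lower by the mean of both types. For cKO cDC2 on its own 11 of them were higher and 4 lower. Of 32 pDC identity genes tested, 29 were lower in cKO conventional DC, 0 higher, and their median difference was −2.90, against 8.97% lower and a median of 0.042 over all genes. The 3 not called were Upb1 (−0.36), Gpr162 (−0.64) and Plac8 (−0.27). Of 29 core conventional DC genes, 18 were higher and 3 lower (median 1.30). The costimulatory ligand Cd80 led them after Anpep (4.22 ± 0.22, 18.6-fold). Zbtb46, the repressor used to tell conventional DC from other myeloid cells, was called but small in size (0.72 ± 0.17, adjusted p = 0.00208), and the cytokine receptor Flt3 did not pass (0.17 ± 0.19, adjusted p = 0.610). The 3 lower members were Kmo (−1.59 ± 0.25) and Haao (−0.79), enzymes of tryptophan breakdown, and the protease inhibitor Spint2 (−0.54).

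On the E protein and ID axis, 1 of 12 genes was higher (Id2) and 6 were lower in conventional DC. Id2 read 9.80, 10.15, 10.29 and 10.48 in cKO cDC1 and 8.40, 8.25, 9.53, 9.01 and 9.24 in cKO cDC2, against 4.44, 4.26, 6.53, 5.19 and 6.81 in cKO pDC. Its pDC arrays 3 and 5 stood above the other 3, and all conventional arrays stood above all pDC arrays (4.09 ± 0.41, 17.0-fold, adjusted p = 4.76e-08). Tcf4 read 7.32, 6.46, 7.48 and 7.28 in cKO cDC1 and 9.38, 9.49, 8.96, 9.35 and 9.60 in cKO cDC2, against 11.90, 12.01, 11.35, 12.33 and 11.40 in cKO pDC, so that cDC2 held a middle level (−3.55 ± 0.20, adjusted p = 2.93e-12). Besides Tcf4 and Spib, the lower genes were Zfp521 (−2.02), Bcl11a (−1.67), the E protein Tcf12 (−1.61) and Zeb2 (−1.51). Zeb2 was lower through cDC1 (−2.69 ± 0.19), and cDC2 did not pass against pDC (−0.33 ± 0.18, adjusted p = 0.248). The third E protein, Tcf3, did not pass (0.24 ± 0.28, adjusted p = 0.625), nor did Id1 (0.26) and Id3 (−1.01).

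Of 32 other DC transcription factors, 9 were higher and 9 lower. Batf3, which cDC1 need to develop, was higher in both conventional types, at 9.19 to 10.70 against 5.78 to 7.51 in cKO pDC (3.35 ± 0.32). The myeloid factor Spi1 (PU.1, 2.54) and Nfil3 (2.88) were higher too. On the pDC side stood Ets1 (−2.05), Mef2c (−1.87), Ikzf3 (−1.48), Irf4 (−1.38) and Irf8. Irf8, needed by both cDC1 and pDC, read 11.61, 10.98, 11.86 and 11.77 in cKO cDC1 and 8.82, 9.25, 8.01, 8.73 and 8.89 in cKO cDC2, against 12.13, 12.36, 10.97, 12.67 and 11.89 in cKO pDC. Only the cDC2 arrays stood apart, and the difference from pDC passed for cDC2 (−3.27 ± 0.33, adjusted p = 4.90e-08) and not for cDC1 (−0.45 ± 0.34, adjusted p = 0.448).

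Antigen presentation was described by genes of MHC class II, MHC class I and costimulation. Of 13 class II genes 9 were higher and 0 lower (median 0.63). The count higher was 5 without pDC array 3, and under quantile normalization it was 6 with a median of 0.29. Ciita, the master activator of class II transcription, read 8.25 to 10.00 in the 9 cKO conventional arrays and 5.94 to 7.86 in the 5 cKO pDC arrays (2.22 ± 0.32, adjusted p = 7.93e-06), without overlap. H2-Ob, a subunit of the peptide-loading regulator DO, differed by 2.18 ± 0.21 and H2-Eb2 by 1.84 ± 0.20. The classical chains were closer: H2-Eb1 at 1.11 ± 0.20, H2-Ab1 at 0.46 ± 0.14 and H2-Aa, which did not pass, at 0.41 ± 0.17 (adjusted p = 0.0855). MHC genes have close paralogs, so these sizes are uncertain. Of 17 class I genes 3 were higher and 1 lower, close to the shares over all genes (15.6% and 8.97%), and H2-Q4 (adjusted p up to 0.122) and Tap2 (up to 0.124) lost their calls when single arrays, pDC array 4 and pDC array 3 among them, were left out. Without overlap stood the lipid-presenting Cd1d1 (2.89 ± 0.19) and Wdfy4 (1.78 ± 0.19), which cDC1 need for cross-presentation. B2m (−0.31) and the peptide transporter gene Tap1 (0.094) did not pass.

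Of 20 costimulation genes 12 were higher in cKO conventional DC and 1 lower (median 1.15). The CD28 ligand Cd86 read 11.12, 11.22, 11.39 and 11.25 in cKO cDC1 and 9.95, 10.21, 10.76, 10.41 and 10.41 in cKO cDC2, against 6.43, 6.86, 7.29, 7.72 and 7.17 in cKO pDC. No arrays overlapped (3.70 ± 0.19, adjusted p = 4.45e-13). The inhibitory receptor Havcr2 (TIM-3) differed by 3.77 ± 0.20, Cd83, which keeps class II on the surface, by 2.61 ± 0.29, the PD-1 ligand Cd274 by 1.88 ± 0.23 and Cd40 by 1.85 ± 0.25. Cd200, a ligand that restrains myeloid cells, was the one lower (−1.02 ± 0.22, adjusted p = 0.00114).

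Sensors of nucleic acids and microbial products were split between the cell types. Of 21 Toll-like receptor genes and adaptors 6 were higher and 3 lower, and 5 were lower without pDC array 3 and 7 under quantile normalization. Tlr13, a sensor of bacterial ribosomal RNA, read 7.31, 7.98 and 8.86 (lowest, median and highest of 9) in cKO conventional arrays, against 3.83, 3.99, 4.44, 3.72 and 3.74 in cKO pDC (4.11 ± 0.30, 17.3-fold). Tlr3, the sensor of double-stranded RNA, stood at 10.51 to 11.07 in cKO cDC1 and 6.01 to 7.22 in cKO cDC2, against 4.90 to 5.59 in cKO pDC. The cDC1 difference (5.67 ± 0.25) was several times the cDC2 difference (1.49 ± 0.23), and both passed. The lipopeptide receptors Tlr1 (2.06) and Tlr2 (1.78) and the co-receptor Cd14 (2.60) were higher as well. Tlr9, the DNA sensor paired with Tlr7 in pDC, was lower with overlapping arrays: 7.98 to 9.85 in cKO conventional DC and 9.61 to 11.43 in cKO pDC (−1.34 ± 0.31, adjusted p = 0.00207).

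Of 22 genes of the interferon production axis 10 were lower and 3 higher in cKO conventional DC. Besides Siglech, Tlr7, Tlr9, Spib and Irf8, the lower ones were the membrane-bending adaptor Pacsin1 (−3.71 ± 0.32), the surface tetherin Bst2 (−2.71 ± 0.31), the interferon regulator Irf7 (−1.64), the endosomal transporter Slc15a4 (−1.22) and Pld4 (−1.07). Those higher were Plscr1 (1.66), Irf5 (1.01) and the cytosolic RNA sensor Ddx58 (RIG-I, 1.04). Ddx58 was a cDC2 difference, 2.02 ± 0.29 over pDC in cDC2 and 0.054 ± 0.31 in cDC1 (adjusted p = 0.950). The shared steps Myd88 (0.46), Traf6 (0.20) and Irf3 (0.16) did not pass. Interferon-stimulated genes had no common direction, with 6 higher and 7 lower of 31. Bst2 and the signal transducer Stat2 (−1.81 ± 0.27) were the largest lower ones, and the CXCR3 ligand Cxcl10 (2.83 ± 0.29) and Gbp3 (1.68 ± 0.27) were the largest higher ones.

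Cytokine and chemokine genes were mostly higher in conventional DC: 23 of 31 rose, 2 fell and the median was 1.61. Besides Cxcl16, Cxcl9, Il12b, Il1b and Il6, Il15, which sustains NK and memory CD8 T cells, differed by 4.23 ± 0.35, Il18 by 3.67 ± 0.37 and the CCR4 ligand Ccl22 by 3.12 ± 0.22. The fallers were Il12a, the p35 partner of Il12b, and Ccl4. Il12a was low on every array, at 3.95 to 4.36 in cKO conventional DC and 5.48, 5.23, 5.19, 4.82 and 5.53 in cKO pDC (−1.06 ± 0.15, adjusted p = 9.75e-06). Ccl4 overlapped, at 7.20 to 9.23 in cKO conventional DC and 8.99 to 9.99 in cKO pDC (−1.03 ± 0.32, adjusted p = 0.0203), and lost its call without pDC array 2 (adjusted p = 0.0604) or without pDC array 5 (0.0610). Tnf (0.25), Ccl3 (0.27) and Tgfb1 (0.012) did not pass.

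Chemokine receptors divided evenly, 5 higher and 5 lower of 17. Ccrl2, a scavenging receptor for chemerin, was higher in both types (2.95 ± 0.17), as was Ccr7, the receptor for lymph node homing (1.58 ± 0.21). Cxcr3 fell in both types but far more in cDC2: 9.32, 8.69, 9.76 and 9.71 in cKO cDC1 and 6.39, 6.95, 6.71, 7.27 and 6.86 in cKO cDC2, against 9.83, 10.42, 9.95, 10.28 and 10.65 in cKO pDC. The cDC2 arrays stood well below both other groups, and both types passed (−0.85 ± 0.27, adjusted p = 0.0252, in cDC1 and −3.39 ± 0.25 in cDC2). Cxcr5 (−1.01), S1pr4 (−1.05) and Cmklr1 (−0.97), the signalling chemerin receptor, were lower too.

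**Figure D3:**
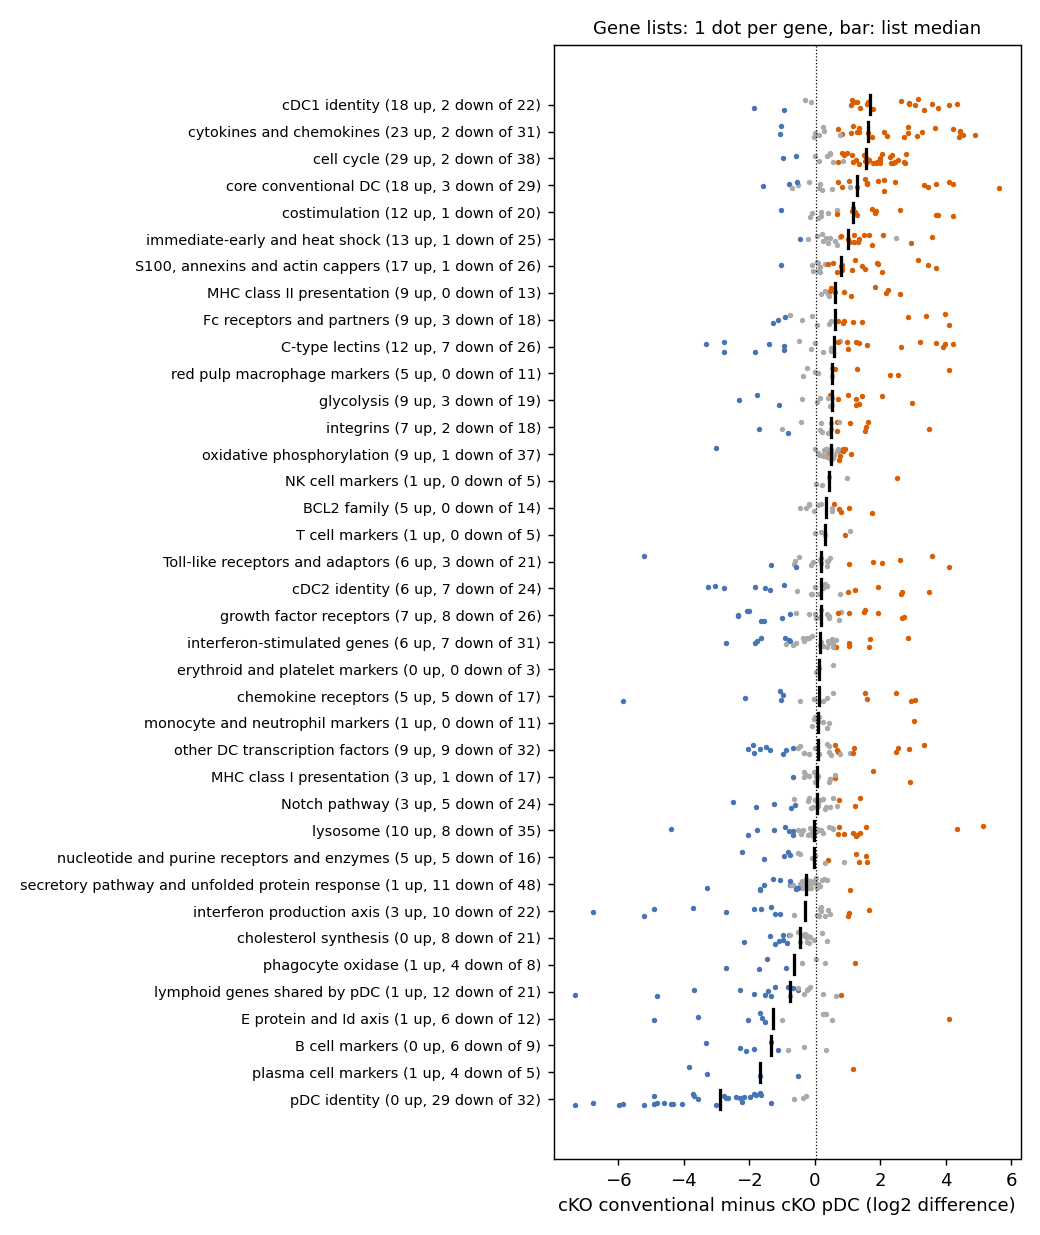
Difference of cKO conventional DC from cKO pDC (log2) for every tested member of 38 gene lists, 1 dot per gene, orange where called higher, blue where called lower and grey where not called. Black bars mark list medians and the dotted line the median of all genes (0.042). Core conventional DC, cDC1 identity, cytokine, cell cycle and costimulation lists lie to the right, and pDC identity, plasma cell, B cell and E protein lists to the left. The cDC2 identity list has its median near the dotted line (0.195).

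C-type lectins were split by gene: 12 of 26 were higher and 7 lower. Klrb1b, of the NKR-P1 family, stood at 8.78 to 9.56, against 4.33 to 5.46 in cKO pDC (4.20 ± 0.18). The β-glucan receptor Clec7a (3.93), the fungal receptor Clec4n (3.70) and Clec4b1 (3.99) were also higher. Clec4 genes have close paralogs, so their sizes are uncertain. On the pDC side were the early activation antigen Cd69, at 6.33 to 9.89 in cKO conventional DC and 10.94, 11.44, 10.81, 12.24 and 11.85 in cKO pDC (−3.32 ± 0.32), the B cell co-receptor Cd72 (−2.78) and Clec12a (−1.82).

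Fc receptors and paired receptors rose in 9 and fell in 3 of 18. Treml4 differed by 4.11 ± 0.37, the paired inhibitory receptor Pilra by 3.99 ± 0.30 and its activating counterpart Pilrb1 by 3.38 ± 0.24, and the activating Fc receptor Fcgr4 by 2.84 ± 0.31. The signalling chains went the other way. Fcer1g read 8.37, 8.43, 9.12 and 8.84 in cKO cDC1 and 11.08, 11.11, 11.26, 11.58 and 11.74 in cKO cDC2, against 11.10, 11.20, 11.06, 11.44 and 11.74 in cKO pDC. The low cDC1 arrays carried its mean difference (−1.29 ± 0.19), and cDC2 differed from pDC by 0.045 ± 0.22 (adjusted p = 0.931). Tyrobp (DAP12) was lower by the mean contrast (−0.90 ± 0.21).

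Integrins rose in 7 and fell in 2 of 18. Itgam (CD11b) stood at 7.51 to 7.70 in cKO cDC1 and 9.09 to 10.50 in cKO cDC2, against 4.56 to 5.84 in cKO pDC (3.48 ± 0.21). Itgax (CD11c), the usual surface mark of conventional DC, differed by 1.53 ± 0.30. Itgb3 (−1.70) and Cd47 (−0.81) were the fallers, and Cd47 rested on the choice of probe set (−0.27, adjusted p = 0.316 with the lowest probe set). Among genes of S100 proteins, annexins and actin-binding proteins 17 of 26 rose and 1 fell. Anxa1 (3.70 ± 0.29), Anxa3 (3.46 ± 0.21) and the actin bundler Fscn1 (3.16 ± 0.27) led without overlap, and S100a6 was the faller (−1.04 ± 0.30). Phagocyte oxidase genes ran against them: 4 of 8 were lower, the catalytic subunit Cybb (−1.45 ± 0.25), Ncf1 (−1.71 ± 0.30), the GTPase Rac2 (−0.88) and the proton channel Hvcn1 (−2.72 ± 0.35), and Ncf4 was higher (1.22 ± 0.22).

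Receptors for growth factors and cytokines were split, 7 higher and 8 lower of 26. Receptors for the 2 interferon families went opposite ways. Ifngr1, the ligand-binding chain for interferon-γ, stood at 9.09 to 10.62 in cKO conventional DC and 6.76 to 8.03 in cKO pDC (2.71 ± 0.20). Both chains of the type I interferon receptor were lower, Ifnar1 (−1.63 ± 0.21) and Ifnar2 (−2.07 ± 0.19). The M-CSF receptor Csf1r (2.65 ± 0.19) and the stem cell factor receptor Kit (1.92 ± 0.20) were higher. The TGF-β receptor Tgfbr1 (−2.35 ± 0.17), the IL-7 receptor Il7r (−1.99 ± 0.18) and Csf2rb2 (−2.34 ± 0.26) were lower, and Csf2rb2 has a near-identical copy in Csf2rb (−0.57, not called), so the pair is uncertain.

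Genes that pDC share with lymphocytes fell in 12 and rose in 1 of 21 (median −0.75). Dntt, the template-independent polymerase of antigen receptor rearrangement, read 3.07 to 3.90 in cKO conventional DC, against 6.35, 6.86, 7.03, 7.68 and 7.52 in cKO pDC (−3.68 ± 0.21). Gata3 was the riser, through cDC2 alone (1.85 ± 0.24, against −0.22 ± 0.25 in cDC1). Markers of B cells were also higher in pDC: 6 of 9 were called lower in conventional DC, and their summed intensity was 615 to 1010 in cKO cDC1 and 418 to 598 in cKO cDC2, against 1360 to 2134 in cKO pDC. They included the B cell factors Pax5, at 4.15 to 5.65 in cKO conventional DC and 6.51 to 7.84 in cKO pDC, and Ebf1, at 3.39 to 4.55 in cKO conventional DC and 4.98 to 7.37 in cKO pDC, while Ms4a1 (−0.81), Cd22 (0.36) and Ighm (−0.32) did not pass. The part of B cells in these differences was not tested, and in sorted bulk RNA fewer cells of a type and less RNA per cell cannot be told apart.

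Secretory pathway and unfolded protein response genes fell in 11 and rose in 1 of 48 (median −0.26). Under quantile normalization 23 were lower (median −0.44), with 2 array sets as a term 18, with 3 sets 22 and within the low set 7. Mzb1, an endoplasmic reticulum cofactor of secretory B cells and pDC, read 4.88, 5.13, 5.32 and 5.23 in cKO cDC1 and 4.56, 4.73, 5.25, 5.24 and 5.11 in cKO cDC2, against 7.72, 8.50, 8.36, 7.77 and 9.38 in cKO pDC (−3.29 ± 0.23). Xbp1, the factor that widens the secretory pathway, differed by −1.67 ± 0.31 and the coat component Sec24d by −1.67 ± 0.20. The plasma cell markers share Mzb1 and Xbp1 with this list, so their counts and sums are not independent of it. Of 5 plasma cell markers tested 4 were lower and Prdm1 was higher (1.17). Their summed intensities were 742 to 1167 in cKO cDC1 and 554 to 837 in cKO cDC2, against 2429 to 4227 in cKO pDC. The plasma cell marker Jchain read 9.32, 8.47, 9.97, 9.31 and 4.31 in cKO pDC, low on array 5 only, and 3.50 to 6.73 in cKO conventional DC (−3.84 ± 0.80, adjusted p = 0.000820). Mzb1 was highest on that same pDC array 5. The part of plasma cells was not tested.

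Of 37 oxidative phosphorylation genes 9 were higher and 1 lower (median 0.50). The count higher was 4 to 14 when 1 array was left out, the lowest without pDC array 4 and the highest without pDC array 5, and it was 3 within the low set and 4 within the high set. Other fits gave more: 17 under median centring, 18 with 2 array sets as a term, 25 with 3 sets, 26 with the replicate block and 33 with array weights. The one lower was Cox6a2, a cytochrome oxidase isoform of muscle and pDC, at 5.86 to 6.37 in cKO conventional DC, against 8.57, 8.82, 9.26, 9.01 and 9.68 in cKO pDC (−3.02 ± 0.18, 8.10-fold lower). In glycolysis 9 of 19 were higher and 3 lower. The regulatory enzyme gene Pfkfb3 read 7.99 to 8.88 in cKO conventional DC and 5.56 to 5.77 in cKO pDC (2.98 ± 0.16), and Pfkp differed by 2.04 ± 0.20. The glucose transporter Slc2a3 was lower (−2.32 ± 0.33) through cDC1 (−3.71), with cDC2 at −0.94 ± 0.38 (adjusted p = 0.0878), and Ldhb was lower in both (−1.77 ± 0.20).

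Cholesterol synthesis genes fell in 8 and rose in 0 of 21. Msmo1 read 7.65 to 8.60 in cKO conventional DC, against 10.21, 10.27, 9.95, 10.82 and 10.51 in cKO pDC (−2.14 ± 0.24). Sc5d (−1.38 ± 0.21) and Fdft1, which makes squalene (−1.10 ± 0.21), were lower without overlap. Lysosomal genes went both ways, 10 higher and 8 lower of 35. Besides Cd63, the acid amidase gene Naaa stood at 11.60 to 12.45 in cKO cDC1 and 8.86 to 10.02 in cKO cDC2, against 6.25 to 6.93 in cKO pDC (4.35 ± 0.20). The protease gene Ctsl read 4.84, 5.71, 5.29 and 5.58 in cKO cDC1 and 5.57, 5.77, 6.27, 6.58 and 6.58 in cKO cDC2, against 9.73, 10.28, 10.26, 10.19 and 10.27 in cKO pDC (−4.39 ± 0.23, 21.0-fold lower). Ctss, the protease that trims the class II invariant chain, did not pass (0.18 ± 0.18, adjusted p = 0.560), and the lysosomal cholesterol transporter Npc1 was lower (−2.04 ± 0.20).

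Most cell cycle genes were higher in conventional DC. Of 38 tested, 29 were higher and 2 lower, with a median of 1.55, against 15.6% higher and a median of 0.042 over all genes. Ccna2, the S and G2 phase cyclin, read 7.47, 7.20, 7.73 and 7.74 in cKO cDC1 and 8.44, 8.05, 7.80, 8.82 and 8.39 in cKO cDC2, against 4.75, 5.36, 4.65, 5.08 and 5.77 in cKO pDC. All conventional arrays lay above all pDC arrays (2.79 ± 0.24, 6.93-fold, adjusted p = 2.76e-09). The mitotic cyclin Ccnb2 differed by 2.75 ± 0.21, the proliferation marker Mki67 by 2.73 ± 0.32, the kinase gene Cdk1 by 2.53 ± 0.28 and the ribonucleotide reductase subunit Rrm2 by 2.40 ± 0.29. Each type passed on its own in part of the list: 22 genes were higher in cKO cDC1 and 31 in cKO cDC2. The 2 lower genes were the D cyclins Ccnd1 (−0.97 ± 0.23) and Ccnd2 (−0.57 ± 0.20), which lost its call without any 1 of 8 arrays (adjusted p up to 0.133, without pDC array 5), and Ccnd3 did not pass (0.45). The count higher stayed at 28 to 32 with 1 array left out, at 27 within the low set and at 31 within the high set.

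**Figure D4:**
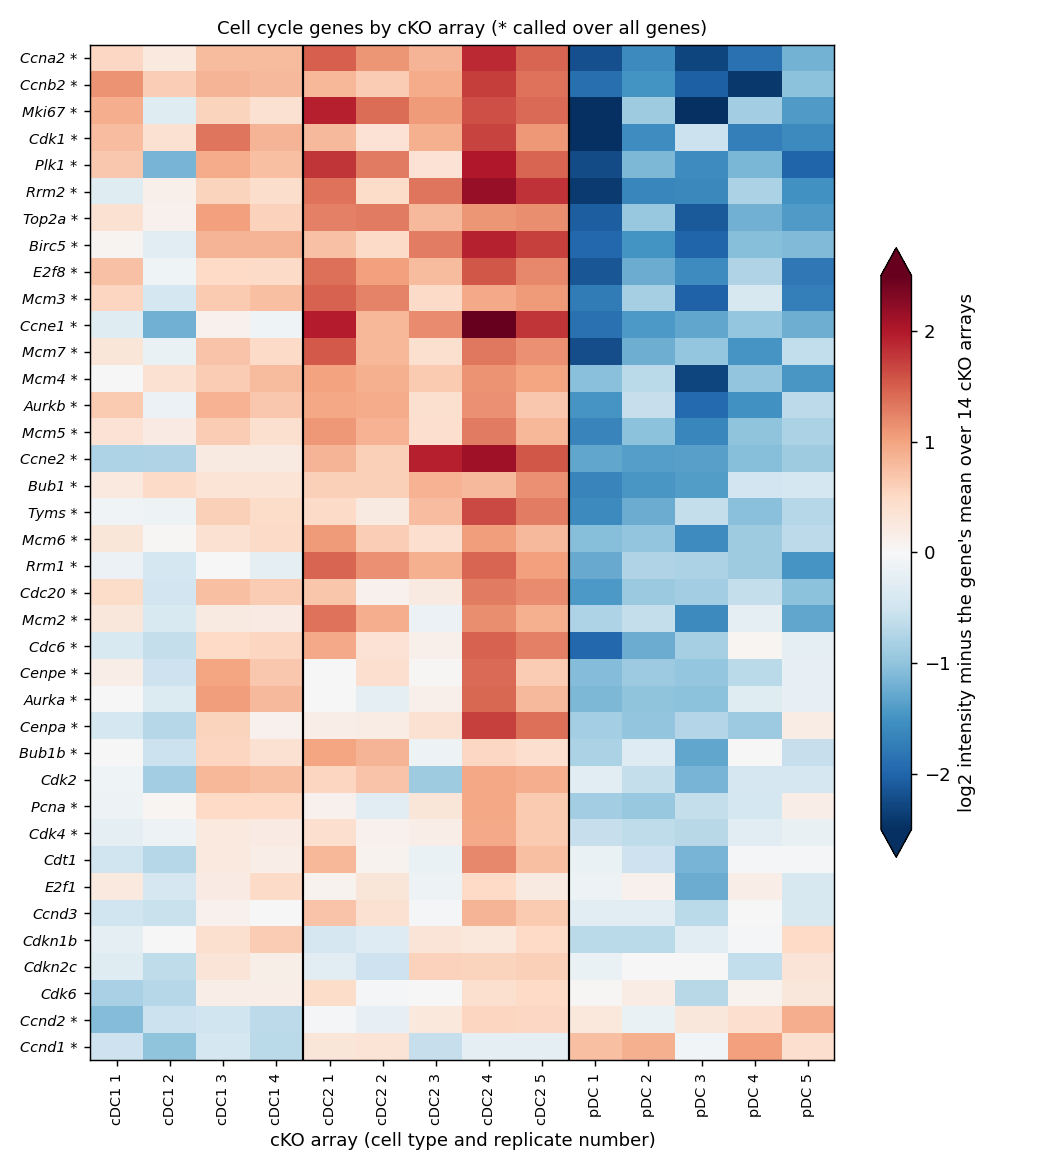
Log2 intensity of 38 cell cycle genes on the 14 cKO arrays, each minus the gene's mean over these arrays, with asterisks at genes called over all genes. The 5 pDC columns at the right are below the mean for most genes, cDC2 columns are mostly the highest, and the D cyclins Ccnd1 and Ccnd2 in the bottom rows run the other way.

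Immediate-early and heat shock genes, which can respond to digestion and sorting, were higher in 13 and lower in 1 of 25 (median 1.03). Their median was 1.24 within the low set and 0.42 within the high set. Egr2 read 10.74, 9.53, 10.67 and 10.11 in cKO cDC1 and 10.72, 10.64, 8.94, 10.33 and 10.18 in cKO cDC2, against 7.20, 6.52, 4.98, 7.75 and 6.66 in cKO pDC (3.59 ± 0.35). Nr4a2 (2.93 ± 0.28) and Dusp2 (2.09 ± 0.27) were higher too, and Fos (0.21), Jun (0.055) and Hspa1a (2.47, adjusted p = 0.114) did not pass. Several cytokine genes above, Il1b and Il6 among them, are themselves quickly induced, and the part of cell handling in their differences was not tested.

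In the BCL2 family 5 of 14 were higher and 0 lower, among them Bcl2l14 through cDC1 (2.64 ± 0.34), the proapoptotic Pmaip1 (1.05 ± 0.25) and the antiapoptotic Bcl2l1 (0.80 ± 0.15). In the Notch pathway 3 of 24 were higher and 5 lower, against 15.6% higher and 8.97% lower over all genes. The effector Rbpj (1.21 ± 0.20) and the glycosyltransferase Lfng (1.39 ± 0.23) were higher, while the ligand Dll4 (−2.51 ± 0.31) and the receptor Notch1 (−1.80 ± 0.36) were lower. Notch2 did not pass (0.32 ± 0.41, adjusted p = 0.657). Of 16 purinergic genes 5 were higher and 5 lower. Entpd1 (CD39), which degrades extracellular ATP, was higher (1.57 ± 0.22), and the nucleotide receptor P2ry13 was lower (−2.22 ± 0.20). P2ry14 was low in cDC2 alone (−3.12 ± 0.23) and level with pDC in cDC1 (0.032 ± 0.25, adjusted p = 0.963).

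The mean of both types hid genes that set 1 conventional type against pDC. Each type alone was called against pDC in 20.4% of all genes for cDC1 (12.5% higher and 7.9% lower) and 20.8% for cDC2 (13.5% and 7.27%). Of the 1892 higher genes, 626 were shared, 297 passed in both types with overlapping arrays, 416 passed in cDC1 and not in cDC2, 458 passed in cDC2 and not in cDC1, 93 passed in neither alone and 2 passed on opposite sides. Of the 1091 lower genes the same counts were 431, 193, 224, 170, 71 and 2. Passing in 1 type and not in the other does not show a difference between them: of the 416 and 458 genes, 168 and 189 were also called between cKO cDC1 and cKO cDC2 directly, where 8.95% of all genes were called (4% higher in cDC1 and 4.95% lower).

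Of the 6 widest such gaps, 4 were genes high in cDC1. Ccl24, an eosinophil chemokine, read 10.89, 11.06, 11.52 and 11.56 in cKO cDC1 and 5.15, 5.11, 5.46, 5.29 and 4.97 in cKO cDC2, against 4.92, 4.91, 5.38, 4.65 and 4.98 in cKO pDC. Only cDC1 stood apart (6.29 ± 0.21 over pDC and 6.06 ± 0.21 over cDC2, adjusted p = 6.49e-15). The collagen hydroxylase P3h2 (5.58 ± 0.26), the chemokine receptor Xcr1 (5.67 ± 0.21) and Clec4b2 (5.77 ± 0.27) showed the same pattern, with cDC2 differing from pDC by 0.14, 0.46 and 0.68. Car1, carbonic anhydrase 1, was a cDC2 gene: 6.38, 5.20, 6.18 and 5.52 in cKO cDC1 and 12.52, 11.63, 11.92, 12.99 and 12.50 in cKO cDC2, against 7.51, 7.56, 9.12, 4.85 and 4.24 in cKO pDC. Its pDC arrays spread over almost 5 log2 units, and the cDC2 difference was 5.66 ± 0.68 (adjusted p = 8.36e-07). Cd7, an immunoglobulin-family receptor of T cells and pDC, was low in cDC1 alone, at 5.83 to 7.07 in cKO cDC1 and 10.97 to 11.76 in cKO cDC2, against 11.34 to 12.49 in cKO pDC.

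In 29 genes the 2 types were called on opposite sides of pDC, 12 with cDC1 above and cDC2 below and 17 the other way. The dead-cell receptor Clec9a read 10.94, 10.74, 11.19 and 11.34 in cKO cDC1 and 7.24, 7.60, 6.16, 7.06 and 6.90 in cKO cDC2, against 9.92, 10.10, 9.35, 10.22 and 10.17 in cKO pDC, with differences of 1.10 ± 0.26 and −2.96 ± 0.24. Cd8a (1.17 in cDC1 and −1.76 in cDC2) and Tlr12 (1.19 and −1.39) ran the same way. In the other direction the fractalkine receptor Cx3cr1 differed by −1.18 ± 0.31 in cDC1 and 1.93 ± 0.29 in cDC2, and the lectin Cd209a by −1.48 ± 0.23 and 1.24 ± 0.22. By the mean of both types, Cd8a, Tlr12, Cx3cr1 and Cd209a were not called. Of 24 cDC2 identity genes 6 were higher and 7 lower by the mean. Cd4 and Clec10a, used to describe cDC2, were higher in pDC than in cDC1 (−4.35 ± 0.35 and −4.93 ± 0.40), and Cd4 also than in cDC2 (−2.17 ± 0.33), where Clec10a differed by −0.63 ± 0.38 (adjusted p = 0.299).

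With Bcl6 present the comparison of conventional DC with pDC gave 1132 higher and 728 lower genes in WT (15.3% of all, 9.31% and 5.99%), on 9 arrays. Of the 2983 genes called in cKO, 1618 were called in WT on the same side, 3 on the opposite side and 1362 not at all, and 239 were called in WT alone. Few of these contrasts were shown to differ: the cKO difference minus the WT difference passed for 40 genes (0.329% of all, 38 positive, or 0.313%, and 2 negative, or 0.0165%). In limma 386 genes had an unadjusted p below 0.05, less than a share of 0.05 of all genes tested. The cKO conventional mean lay above the WT conventional mean in all 38 positive genes. Of these, 14 were higher than pDC in both genotypes, 15 were lower than pDC in WT and 9 were not called in WT. Of the 15 lower in WT, 7 were also lower in cKO, 5 were not called in cKO and 3 were higher in cKO: Pilra, Capg and Cldnd1. Pilra passed against cKO pDC in both types. Capg passed in cDC2 (1.17) and not in cDC1 (0.47, adjusted p = 0.409). Cldnd1 passed in cDC1 (1.33) and not in cDC2 (0.28, adjusted p = 0.468).

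Cd209d, a lectin of the DC-SIGN family, read 9.13, 9.09, 9.96 and 9.32 in cKO cDC1, 10.70, 10.71, 10.47, 11.74 and 11.59 in cKO cDC2 and 10.64, 10.36, 10.29, 10.84 and 11.26 in cKO pDC. In WT it read 3.95, 4.43 and 4.83 in cDC1, 4.81, 6.17 and 5.68 in cDC2 and 10.69, 10.85 and 11.86 in pDC. By the mean of both types, Cd209d was thus lower than in pDC in WT (−6.16 ± 0.34) and not called in cKO (−0.47 ± 0.27, adjusted p = 0.248). On its own, cKO cDC1 was lower than cKO pDC (−1.30 ± 0.33, adjusted p = 0.00520), and cKO cDC2 did not pass (0.37 ± 0.31, adjusted p = 0.497). The mean differences of the genotypes differed by 5.69 ± 0.44 (adjusted p = 8.29e-08). Pilra read 10.17 to 10.73 in cKO conventional DC, against 5.72 to 7.90 in cKO pDC, and 3.69 to 6.02 in WT conventional DC, against 5.79 to 7.22 in WT pDC. The sign of its difference thus turned (3.99 ± 0.30 in cKO and −1.52 ± 0.38 in WT, differing by 5.51 ± 0.49, adjusted p = 3.84e-07). Capg, an actin capping protein, also turned by the mean of both types (0.82 ± 0.28 in cKO and −3.23 ± 0.36 in WT). Its cKO difference, however, lost its call without any 1 of 8 arrays (adjusted p up to 0.115, without pDC array 1).

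The other genes were called in 1 genotype or in both. Ccl24 (3.26 ± 0.18 in cKO and −0.079 ± 0.23 in WT), the annexin partner S100a10 (2.04 ± 0.35 and −1.28 ± 0.44), the inflammatory chemokine receptor Ccr1 (2.49 ± 0.25 and −0.82 ± 0.31) and Pilrb1 (3.38 ± 0.24 and 0.61 ± 0.31) were called in cKO and not in WT. The sialic acid receptor Cd33 (−0.11 ± 0.20 and −3.17 ± 0.25), the pyrimidine enzyme gene Upb1 (−0.36 ± 0.16 and −3.15 ± 0.20) and the IL-36 receptor Il1rl2 (0.39 ± 0.31 and −2.39 ± 0.39) were called in WT and not in cKO by the mean of both types. Upb1 was lower than cKO pDC in cKO cDC2 on its own (−0.75 ± 0.18, adjusted p = 0.00295). The 2 negative genes were higher in pDC, and more so in cKO. Gm12253 read 9.07, 9.43, 9.11, 9.48 and 9.53 in cKO pDC and 7.37, 7.11 and 7.67 in WT pDC, with conventional arrays at 3.61 to 4.05 in cKO and 3.72 to 4.28 in WT (−2.06 ± 0.23), and 1810065E05Rik differed by −2.18 ± 0.41. Within the low set 14 genes passed this test and within the high set, where WT had 1 array per cell type, none did in limma, with 917 at an unadjusted p below 0.05. Of the 13 genes named in this comparison, Ccr1 (adjusted p = 0.121), Pilrb1 (0.0622), Il1rl2 (0.589), Cldnd1 (0.189) and 1810065E05Rik (0.0622) did not pass within the low set. Without the 3 WT arrays of high Xist 24 of the 40 genes still passed, and Il1rl2 (adjusted p = 0.130), Cldnd1 (0.103) and 1810065E05Rik (0.103) did not.

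**Figure D5:**
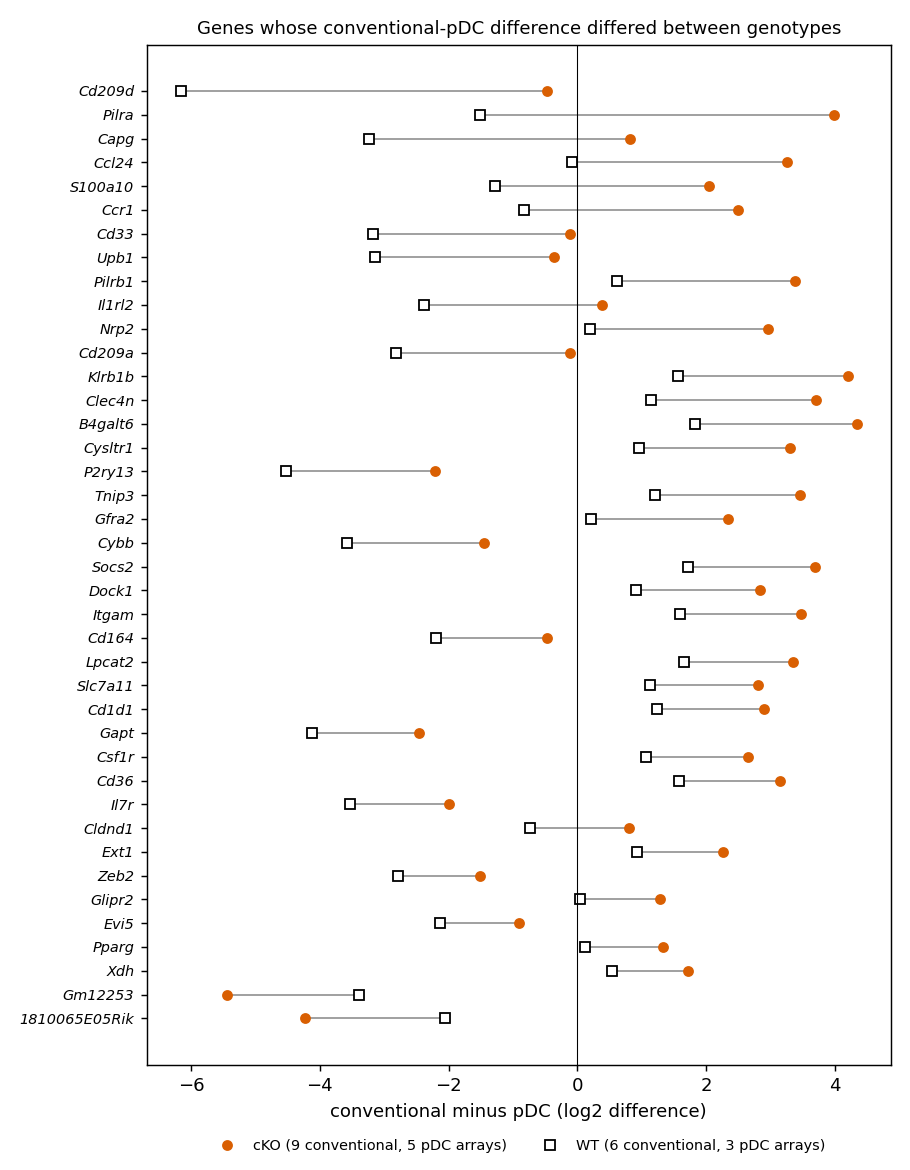
Conventional minus pDC difference (log2) in cKO (orange circles) and WT (open squares) for the 40 genes in which the difference itself differed between genotypes, ordered by that difference. Circles lie right of squares in 38 genes and left of them in Gm12253 and 1810065E05Rik. By the mean of both types, Pilra, Capg and Cldnd1 were called on opposite sides of 0 in cKO and WT.

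Among markers of other cell types on the conventional side, those of red pulp macrophages stood above the share over all genes (15.6% higher). The other lists held 1 call or none. For NK and T cell markers 1 of 5 is above that share too, but it rests on 1 gene each. Of 11 red pulp macrophage markers tested 5 were higher and 0 lower, and their summed intensity was 1346 to 2824 in cKO cDC1 and 895 to 1700 in cKO cDC2, against 378 to 505 in cKO pDC. Spic, the factor of these macrophages, differed by 2.31 ± 0.27, Adgre1 (F4/80) by 2.54 ± 0.22 and Treml4 by 4.11 ± 0.37, while the complement genes C1qa (−0.22), C1qb (0.089) and C1qc (−0.36) did not pass. Of 11 monocyte and neutrophil markers 1 was higher, Lyz2 (3.02 ± 0.28), and S100a8 (0.088) and S100a9 (0.055) were not called. Their sum overlapped between groups, 893 to 3462 in cKO cDC1 and 1484 to 3658 in cKO cDC2, against 612 to 2606 in cKO pDC. Of 5 NK cell markers 1 was higher, the activating receptor Klrk1 (2.52 ± 0.19), with sums of 544 to 717 in cKO cDC1 and 453 to 660 in cKO cDC2, against 204 to 390 in cKO pDC. Of 5 T cell markers Cd3d was higher (0.93 ± 0.31, adjusted p = 0.0334) and lost its call without any 1 of 9 arrays (adjusted p up to 0.120), and sums overlapped at 360 to 569 in cKO cDC1 and 518 to 901 in cKO cDC2, against 328 to 585 in cKO pDC. None of 3 erythroid and platelet markers passed. The part of these cells in the results was not tested.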

How the data were processed

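RNA of sorted splenic DC was hybridised to Affymetrix arrays, 23 in all. Per the submitters' processing notes, Affymetrix Expression Console and RMA were used, with versions not given in the sources used here. The deposited values are gene-level intensity values on a linear scale, and log2 was taken of the deposited values. Of 28853 probe sets, 21789 were paired with 1 gene, 1621 with several and 5443 with none. Per gene, the probe set with the highest mean among those above the array median on at least 3 arrays was kept, leaving 12157 genes. limma 3.58.1 in R 4.3.3 fitted 6 group means, with 17 residual degrees of freedom, two-sided tests and Benjamini-Hochberg adjustment over all genes. Figures used matplotlib 3.10.9 and numpy 2.4.6. Precision is limited by how few arrays each group has.

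The members and gene lists were chosen with earlier results of these data known. A rule picked the 12 largest shared genes on each side and up to 4 called genes per list. It also picked the 6 widest gaps between cDC1 and cDC2, the 10 largest differences from WT and Bcl6. The text does not name all of these genes, in the immediate-early, BCL2, oxidative phosphorylation and cholesterol synthesis lists among others. Several of those not named lost their calls when single arrays were left out. Other named genes were chosen after their values were seen, and the counts given for a list cover all its tested members. The fit was tested on simulated data. Alternatives changed the scaling, the filter, the probe set, the arrays, the variance model and the array sets, and 1 array was left out in turn. Fits with array sets, and without 3 WT arrays of high Xist, were added after seeing the data.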

Additional observations from a re-analysis of the deposited data

Results flagged for a closer look

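Among 219 genes named in the text, 37 of 657 values per gene and cKO group held 1 array far from the others of its group by Dixon's test (9 in cDC1, 15 in cDC2 and 13 in pDC). Chance marks about 1 in 20 groups. The log2 intensity of the array that stood apart is given for each gene. The cKO cDC1 array 1 stood apart in Cd200 (5.87) and Irf4 (4.36). The cKO cDC1 array 2 stood apart in Cd80 (10.18), Jun (9.16), Pilrb1 (9.52) and Stat2 (7.83). The cKO cDC1 array 3 stood apart in Spib (4.66). The cKO cDC1 array 4 stood apart in C1qb (4.79) and Itgb3 (5.63). The cKO cDC2 array 1 stood apart in Ccl4 (7.20), Cxcr5 (4.20) and Jchain (5.38). The cKO cDC2 array 2 stood apart in Cd22 (8.68) and Il12a (3.95). The cKO cDC2 array 3 stood apart in Clec10a (7.03), Csf2rb2 (8.68), Cx3cr1 (7.57), Fscn1 (7.71), Gata3 (6.04), Notch1 (6.67), Pfkfb3 (7.99), Tlr9 (7.98) and Tnf (6.78). The cKO cDC2 array 5 stood apart in Il7r (9.32). The cKO pDC array 1 stood apart in Ctsl (9.73). The cKO pDC array 2 stood apart in Fscn1 (5.85) and Naaa (6.93). The cKO pDC array 3 stood apart in Atp1b1 (9.24), Cd3d (6.98), Fdft1 (8.84), H2-Eb1 (10.97), Il1rl2 (5.65), Rac2 (10.76) and Slc15a4 (8.53). The cKO pDC array 4 stood apart in Prdm1 (5.36). The cKO pDC array 5 stood apart in Jchain (4.31) and Pilra (7.90).

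The conventional-pDC difference itself differed between cKO and WT by the limma interaction test, adjusted over all genes, in these named genes. On the log2 scale, the cKO difference minus the WT difference was positive for Capg (4.05), Ccl24 (3.34), Ccr1 (3.31), Cd1d1 (1.66), Cd209a (2.69), Cd209d (5.69), Cd33 (3.06), Cldnd1 (1.54), Clec4n (2.55), Csf1r (1.58), Cybb (2.12), Il1rl2 (2.77), Il7r (1.54), Itgam (1.88), Klrb1b (2.64), P2ry13 (2.30), Pilra (5.51), Pilrb1 (2.78), S100a10 (3.32), Upb1 (2.79) and Zeb2 (1.28). It was negative for 1810065E05Rik (−2.18) and Gm12253 (−2.06). Besides the genes given above as not passing, further ones lost the call on fewer arrays. Within the low set these were Cd1d1 (limma adjusted p = 0.582), Clec4n (0.353), Csf1r (0.169), Cybb (0.640), Il7r (0.132), Itgam (0.724), P2ry13 (0.0644) and Zeb2 (0.598). Without the 3 WT arrays of high Xist they were Csf1r (0.203), Il7r (0.105), Itgam (0.0794) and Zeb2 (0.288).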

How the results depend on the processing

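Counts of called genes moved by more than 1.5 times in these cases. With the replicate block, 4144 genes were called for cKO cDC2 against cKO pDC, 3428 for WT conventional DC against WT pDC and 76 for the difference between genotypes. The labels do not say that array numbers pair the samples, and correlations of same-numbered deviations ran over 13 pairs at −0.30 to 0.62, 8 of them above 0.1, so the numbers were not taken as a pairing. Between cKO cDC2 and cKO pDC, however, 4 of 5 pairs lay at 0.57 to 0.62 and 1 at −0.051, and numbers 1 to 3 were of the low set and 4 and 5 of the high set in both groups. With array weights, whose estimation stopped before convergence, 6001 genes were called for the mean of both types, 4200 for cDC2 and 6303 for cDC1. With 2 array sets as a term the counts were 3011 in WT and 80 for the difference between genotypes. With 3 sets they were 5375 for the mean, 4656 for cDC1, 4768 for cDC2, 4135 in WT and 132 for the difference between genotypes. Within the low set 1546 genes were called for cDC1 and 14 for the difference between genotypes, and within the high set 1137 in WT and 0 for the difference between genotypes (limma, 917 at an unadjusted p below 0.05). Without the 3 WT arrays of high Xist, WT gave 1170. The cause of these changes was not tested, apart from fewer arrays entering the fits within sets and without WT arrays.

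With 1 array left out, the mean contrast gave 2480 to 3116 genes (55.5% to 68.9% higher), cDC1 1993 to 2663, cDC2 2175 to 2565, the shared genes 1004 to 1293, WT 1617 to 1843 and the difference between genotypes 33 to 45. Quantile normalization gave 1900 higher and 1717 lower genes (52.5% higher, against 63.4% as deposited) and 711 and 686 shared genes. Of the 38 gene lists, a count of called genes moved by over 1.5 times (sides with at least 4 calls) in 12 with array weights, 10 with 3 sets, 6 within the low set, 5 with 2 sets, 4 under the stricter filter and at most 3 under any other alternative. The rule picked 149 called genes, not all of which the text names. Of these, 121 kept the call under all alternatives and 139 when 1 array was left out, and no direction reversed. Signal near background limits the size of folds whose lower level lies below the array medians.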

Other observations

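Probe sets paired with several genes or with none were tested apart. Of 912 tested probe sets paired with several genes 130 were higher and 64 lower in cKO conventional DC than in cKO pDC. Of 2338 paired with none 129 were higher and 101 lower. Over all genes tested 15.6% were higher and 8.97% lower, and the probe sets of both kinds lay below these shares, those paired with none further below. Their genes are not named here.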
